A study of Mus musculus with 4 samples.

Results

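Contacts between Elavl proteins and the transcripts of 8 splicing regulators were examined in the cortex of mice and in N2A, a neuroblastoma cell line of mouse origin. The genes were Ptbp1, Ptbp2, Ptbp3, Khdrbs1, Khdrbs2, Khdrbs3, Qk and Srrm4, taken as named genes out of 21900 protein-coding genes of the RefSeq annotation (GRCm38.p6). A peak was assigned to a gene when it overlapped the gene's span on the strand of most of that gene's peaks. By this rule the 8 genes held 266 of 105110 deposited peaks, 238 of 97775 in cortex and 28 of 7335 in N2A cells. No peak of these genes was dropped for its strand.

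The study used HITS-CLIP of Elavl proteins. The method combines ultraviolet crosslinking of protein to RNA, trimming of the RNA with RNase, immunoprecipitation of the protein and sequencing of the bound fragments. The labels give 3 cortex samples, listed as brain, whose degenerate linker was 25 nt long, and 1 N2A sample, listed as cell line, whose linker was 7 nt long. Genotype, strain, sex, the antibody and the number of animals are stated by neither labels nor files, and the cortex list carries a mark for 2 months that the labels do not explain. For each group the authors deposited 1 list of peaks, each 50 to 51 nt wide, with a p-value from their peak calling and no read counts. The depth is therefore unknown, no spread between samples could be computed, and no test between cortex and N2A cells was possible. Tissue, linker length and the number of samples behind each list (3 in cortex, 1 in N2A cells) cannot be told apart. The intervals below are 95% intervals that cover counting error only, and peaks of a gene are not replicates.

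Peaks in marker genes followed the labels in part. The cortex list had peaks in 5 of 5 neuron markers, 3 of 4 interneuron, 4 of 4 oligodendrocyte, 3 of 4 astrocyte, 1 of 4 microglia and 3 of 8 sympathoadrenal and neuroblastoma markers. The N2A list had them in 3 of 5 neuron markers, 0 of 4 of each of the interneuron, oligodendrocyte, astrocyte and microglia lists, and 5 of 8 sympathoadrenal and neuroblastoma markers. Th and Dbh, enzymes of catecholamine synthesis, had 0 in both lists. In tissue and cell lysates alike, fewer cells that make a transcript and less of that transcript per cell cannot be told apart, and expression was not measured.

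Elavl proteins (Elavl1, Elavl2, Elavl3 and Elavl4) bind U-rich and AU-rich stretches in introns and in untranslated regions, and act on splicing, stability and translation of the bound RNA. The polypyrimidine tract binding proteins encoded by the Ptbp genes bind CU-rich RNA near exons. Ptbp1 holds neuronal exons out of mRNA in progenitors and in most other cells, and Ptbp2 takes over as neurons differentiate. Khdrbs1 (Sam68), Khdrbs2 (SLM1), Khdrbs3 (SLM2) and Qk (quaking) belong to the STAR family of KH-domain proteins, which join RNA binding to alternative splicing. Srrm4 (nSR100) promotes the inclusion of microexons in neurons.

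Peaks were listed in 7 of the 8 genes in cortex and in 6 of the 8 in N2A cells. The corresponding shares of all protein-coding genes were 40.6% in cortex and 14.4% in N2A cells. Qk, Ptbp2, Ptbp3, Khdrbs1 and Srrm4 had peaks in both lists, Khdrbs2 and Khdrbs3 in the cortex list alone, and Ptbp1 in the N2A list alone. Of all coding genes 13.1% had peaks in both lists, 67.7% of those with a cortex peak had no N2A peak, and 8.65% of those with an N2A peak had no cortex peak. The 8 genes were picked for their function and with earlier results of these data known, so the counts describe them and are no evidence of a class effect.

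**Figure D1:**
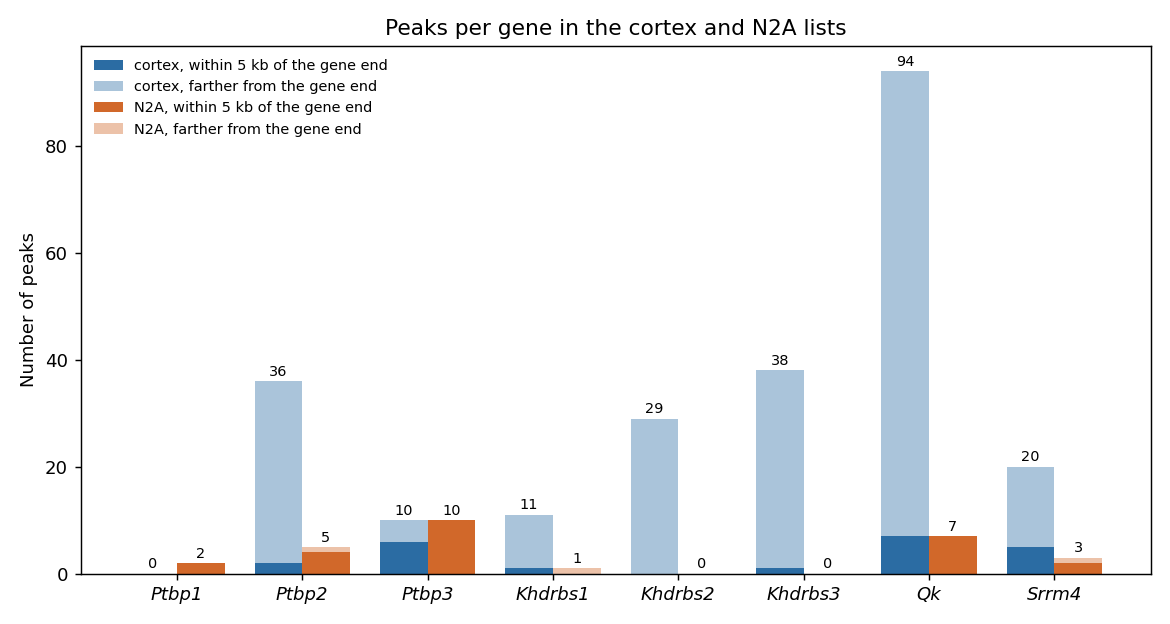
Number of peaks in each of the 8 genes in the cortex list (left bar, blue) and the N2A list (right bar, orange), full colour marking peaks less than 5 kb before the gene end and pale colour those farther away. Qk has 94 cortex peaks and 7 N2A peaks, Ptbp3 has 10 in each list, and nearly all N2A peaks lie within 5 kb of the gene end. There is 1 list per group, so there are no error bars.

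The 2 lists placed their peaks differently within these genes. In cortex 22 of the 238 peaks lay within 5 kb of the gene end, a share of 9.24% (Wilson interval 6.18 to 13.6). In N2A cells 25 of the 28 did, a share of 89.3% (72.8 to 96.3). The size of the contrast depended on peak strength. Among as many of the strongest cortex peaks as the N2A list holds, 18 lay in these genes, 9 of them within 5 kb. Near the gene end the full lists held similar numbers of peaks in these genes, with a cortex to N2A ratio of 0.880 (exact interval 0.473 to 1.63), whereas 216 cortex and 3 N2A peaks lay farther away, a ratio of 72.0 (24.3 to 352).

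The same split ran through the rest of the data. In the other 21892 coding genes, 19.9% of cortex peaks (19.7 to 20.2) and 78.9% of N2A peaks (78.0 to 79.9) lay within 5 kb of the gene end. The ratio of cortex to N2A peaks there was 3.38 (3.28 to 3.48) near the gene end and 50.9 (48.3 to 53.6) beyond it. For the 8 genes pooled, both the cortex share and the ratio near the end lay below the other coding genes by more than the counting intervals. The N2A share and the ratio beyond 5 kb did not. The cortex share was not low in each gene. Among coding genes with at least 5 cortex peaks the median share was 21.4%. Ptbp3 and Srrm4 lay above it, with 82.4% and 53.1% of those genes lower. Ptbp2, Khdrbs1, Khdrbs2, Khdrbs3 and Qk lay below it. The other coding genes were not matched for span, and 5 kb is a smaller part of a long gene. The 8 genes are no random draw, and Qk alone gives 94 of their cortex peaks. The reference used here gave gene spans without exons, so whether a peak lay in an intron, an exon or an untranslated region was not analysed here.

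**Figure D2:**
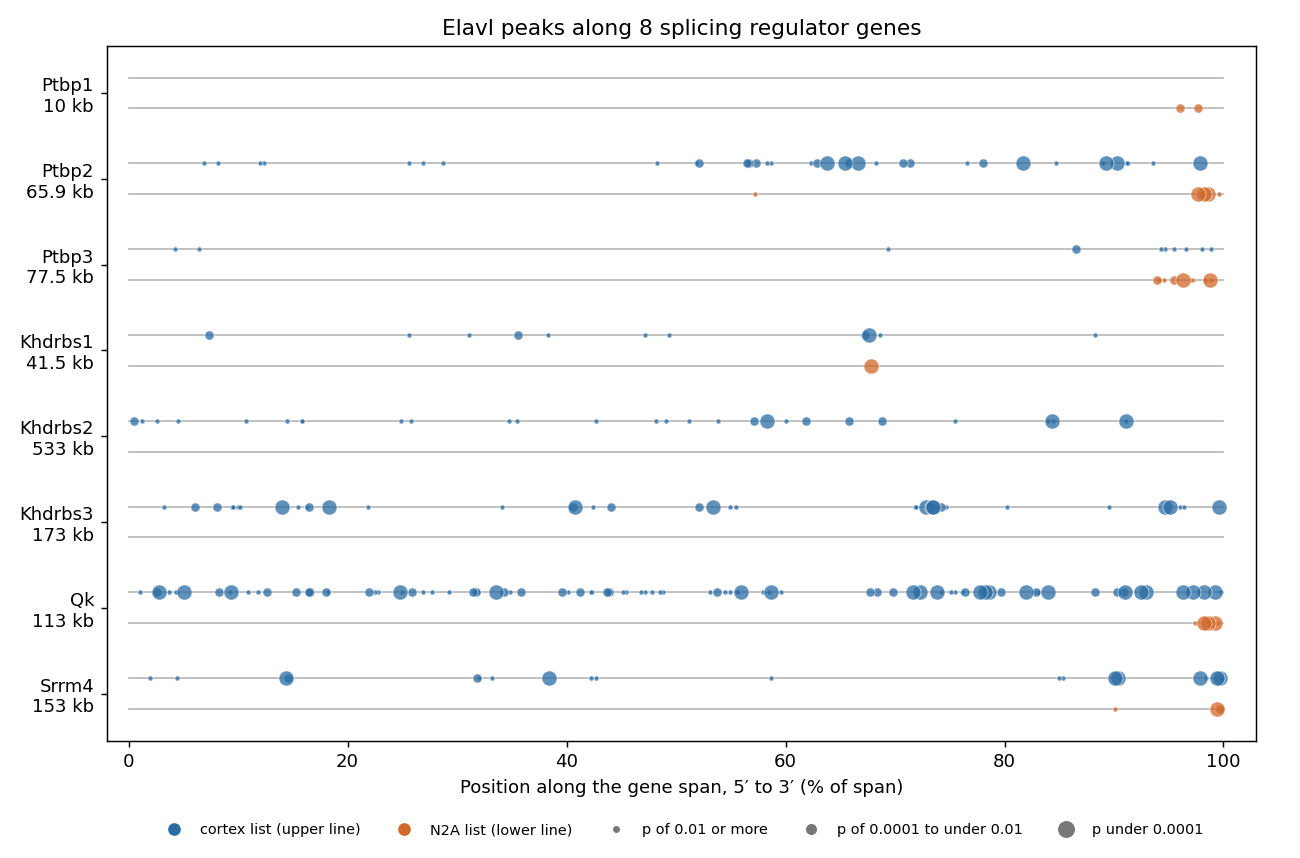
Position of every peak of the 8 genes as a percentage of the gene span from its 5′ to its 3′ end, with the cortex list on the upper line (blue) and the N2A list on the lower line (orange) of each gene. Larger points have smaller values of the authors' p. Cortex peaks run along the whole of Qk and Khdrbs3 and along Khdrbs2 up to 47.4 kb before its end, while N2A peaks of Ptbp1, Ptbp3 and Qk all sit at the 3′ end.

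Among the Ptbp genes, Ptbp1 had no cortex peak and 2 N2A peaks. It spans 10 kb of chromosome 10, at 79854432 to 79864435 on the plus strand. The N2A peaks were at 79864012 to 79864062 (authors' p of 0.00608) and at 79864179 to 79864230 (authors' p of 0.000138), 0.398 and 0.231 kb from the gene end. Both also lay in the span of Plppr3, which the reference places on the minus strand, so by strand they belong to Ptbp1.

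A count of 0 in the cortex list allows up to 0.00307% of its peaks by a floor of 3 counts, and up to 0.00377% by the exact interval. The Ptbp1 share of the N2A list was 0.0273% (0.0033 to 0.0985), so the exact intervals of the lists overlapped. No fold is given, since both counts are at or below 3. Of the 3973 coding genes with a span within 1.5 times that of Ptbp1, 31.6% had a cortex peak and 10.8% an N2A peak. Most genes of this length thus had no cortex peak. Of all coding genes with an N2A peak 8.65% had none, a share over genes of every span that was not matched for length.

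Ptbp2, the neuronal paralog, had 36 cortex and 5 N2A peaks in a span of 65.9 kb on the minus strand of chromosome 3 (119718741 to 119784647). The ratio of 7.20 (exact interval 2.82 to 23.5) did not differ from the ratio of the whole lists, 13.3, beyond counting error. In cortex only 2 of the 36 peaks lay within 5 kb of the gene end, against 4 of 5 in N2A cells. The strongest cortex peak was nonetheless 1.36 kb from the end, at 119720072 to 119720123 (authors' p of 3.02e-121, among the lowest 0.480% of that list).

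The strongest N2A peaks of Ptbp2 surrounded that site. They lay at 119719624 to 119719675 (authors' p of 1.29e-22), at 119719911 to 119719962 (2.56e-23) and at 119720213 to 119720263 (1.99e-05). The gaps between the cortex peak and its neighbours on either side were 110 and 90 nt, so neither overlapped it.

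Most cortex peaks of Ptbp2 lay away from the end. Successive 25% segments of the span, from the 5′ end, held 4, 4, 17 and 11 of the 36. The third segment included peaks at 119742566 to 119742617 (authors' p of 1.81e-27) and at 119741521 to 119741571 (2.1e-17), 23.9 and 22.8 kb from the end. The single N2A peak beyond 5 kb fell in the same segment, at 119746903 to 119746954, and overlapped a cortex peak at 119746875 to 119746926 by 23 nt. Their authors' p were 0.00264 in cortex, among the lowest 39.0% of that list, and 0.0885 in N2A cells, among the highest values of the N2A list.

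Ptbp3, the third paralog, which was first described in blood cells, was the member with as many N2A as cortex peaks. It had 10 in each list within a span of 77.5 kb on the minus strand of chromosome 4 (59471868 to 59549378). The ratio of 1 (exact interval 0.374 to 2.68) lay below the ratio of the whole lists by more than counting error. Among the 2873 coding genes with peaks in both lists the median ratio was 3, and 7.69% of them had a lower ratio than Ptbp3. An N2A count at least as high as the cortex count was found in 21.2% of these genes. Lower ratios than those of Ptbp2, Khdrbs1, Qk and Srrm4 were found in 73.6%, 81.7%, 86.0% and 70.8% of them, in that order.

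All 10 N2A peaks of Ptbp3 lay between 0.872 and 4.70 kb from the gene end. The strongest were at 59474717 to 59474767 (authors' p of 3.53e-10) and at 59472758 to 59472809 (3.9e-07). In cortex 6 of the 10 lay within 5 kb, and none of the 10 had a p under 0.001. The lowest cortex value was 0.00771, at 59482268 to 59482318, 10.4 kb from the end. Of coding genes with similar spans, 71.7% had fewer cortex peaks than Ptbp3 and 99.3% had fewer N2A peaks, which made it 1 of the 18 genes tied at rank 27 of all coding genes in the N2A list.

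Both lists marked 2 sites of Ptbp3 in common. A cortex peak at 59475315 to 59475365 (authors' p of 0.0109) and an N2A peak at 59475305 to 59475356 (0.000808) shared 41 nt. A cortex peak at 59472685 to 59472735 (0.0352) and an N2A peak at 59472715 to 59472765 (0.0447) shared 20 nt.

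**Figure D3:**
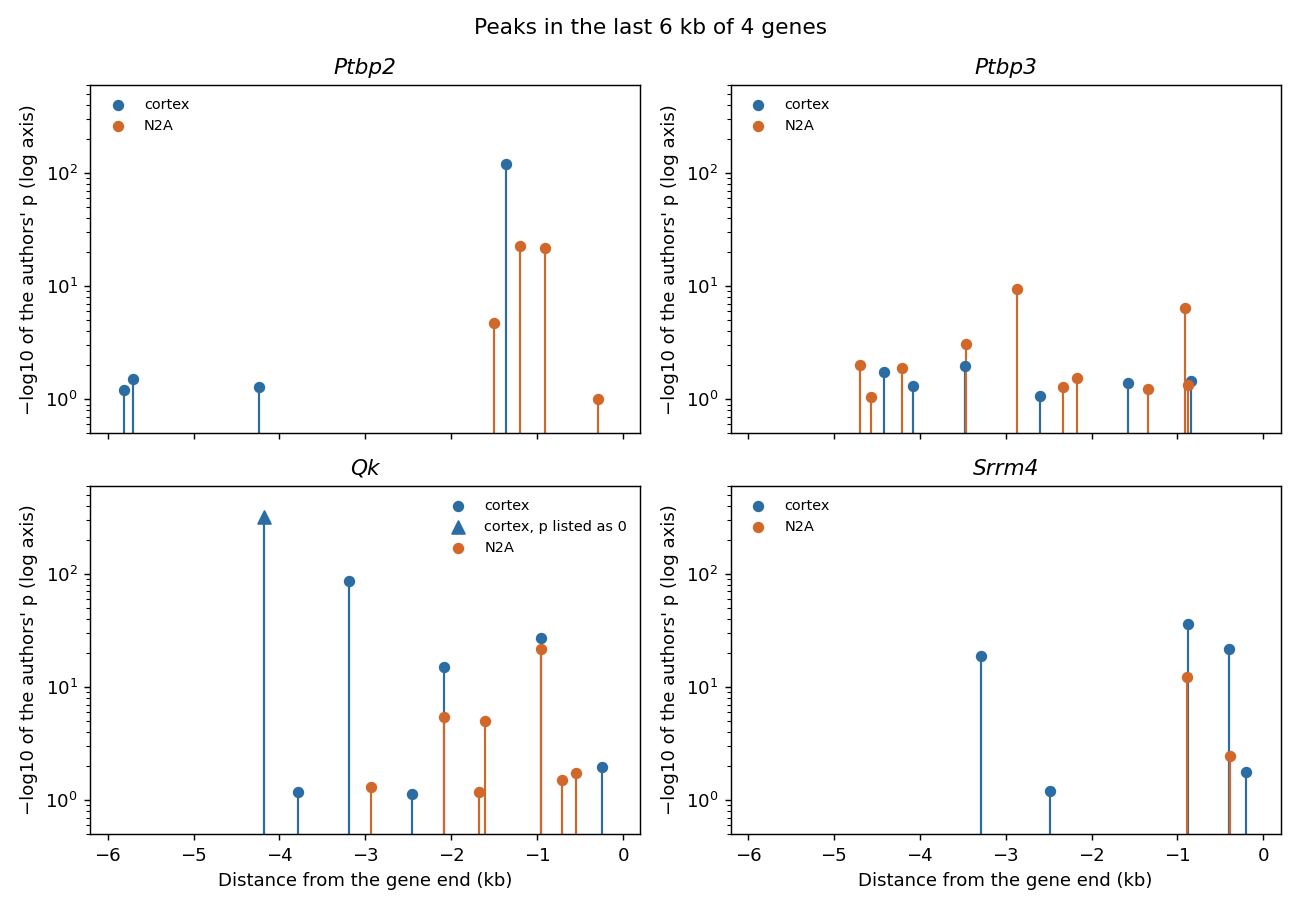
Peaks in the last 6 kb of Ptbp2, Ptbp3, Qk and Srrm4, by distance from the gene end (horizontal axis, kb) and −log10 of the authors' p (vertical log axis), in the cortex list (blue) and the N2A list (orange). The triangle marks the Qk cortex peak whose p is listed as 0 and is drawn near the top of its panel. Heights compare peaks within a list and not between lists. Shared positions appear in Ptbp3, Qk and Srrm4, 2 in each panel, and N2A peaks flank the tall cortex peak of Ptbp2.

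The Khdrbs genes carried few or no N2A peaks. Khdrbs1, which encodes the signalling-responsive splicing factor Sam68, had 11 cortex peaks and 1 N2A peak in a span of 41.5 kb on the minus strand of chromosome 4 (129702380 to 129743878). The ratio of 11 had an exact interval of 1.60 to 473, which holds the ratio of the whole lists. The strongest cortex peak, at 129715809 to 129715859 (authors' p of 2.39e-13), and the N2A peak, at 129715716 to 129715766 (7.3e-06), were 43 nt apart and about 13.5 and 13.4 kb from the annotated gene end. Khdrbs1 was thus the only 1 of the 6 genes with N2A peaks that had none within 5 kb of the end.

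Khdrbs2, a largely neuronal STAR protein, had 29 cortex peaks and no N2A peak in a span of 533 kb on the plus strand of chromosome 1 (32172602 to 32705224). None of the 29 lay within 5 kb of the gene end, and the nearest was 47.4 kb away. This was so in 9.96% of coding genes with at least 10 cortex peaks. The strongest were at 32483002 to 32483052 (authors' p of 2.54e-10), at 32621507 to 32621557 (5.1e-08) and at 32657847 to 32657898 (8.65e-08). The median distance between successive peaks was 10.8 kb.

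For its length Khdrbs2 had an ordinary number of cortex peaks. The 328 coding genes with spans within 1.5 times its own had a median of 29, with 49.7% of them below and 48.5% above it. In N2A cells 20.7% of those genes had a peak.

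Khdrbs3, whose protein SLM2 governs the exon choice of synaptic transcripts in neurons, had 38 cortex peaks and no N2A peak. It spans 173 kb on the plus strand of chromosome 15 (68928392 to 69101794). Of coding genes with similar spans, 89.8% had fewer cortex peaks, and the median was 6. Its strongest peak, at 69093349 to 69093399, had an authors' p of 7.03e-186, among the lowest 0.241% of the list, and lay 8.42 kb from the gene end. A peak at 69101097 to 69101148 (1.33e-16) was the only one of the 38 within 5 kb of the end.

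A run of 3 Khdrbs3 peaks, each starting within 200 nt of the next, covered 69055502 to 69055921, about 46 kb from the gene end. Their authors' p values were 0.000409, 4.58e-07 and 2.68e-10. The span of Gm31550, a long noncoding RNA gene inside Khdrbs3, held 3 of the cortex peaks.

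Taken singly, neither Khdrbs2 nor Khdrbs3 had a share of the N2A list shown to be below its share of the cortex list. Why they had no N2A peak was not tested. A count of 0 in the N2A list allows up to 0.0409% of its peaks, and the 2 genes held 0.0297% and 0.0389% of the cortex list. The lower bounds of the cortex to N2A ratio, taken against 3 counts in the N2A list, were at least 9.67-fold for Khdrbs2 and at least 12.7-fold for Khdrbs3. Neither bound exceeded the ratio of the whole lists. Of coding genes with at least 20 cortex peaks, 52.2% had no N2A peak.

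Qk, which encodes the KH-domain protein quaking and is best known for its part in myelin formation, had the most peaks of the 8 genes in cortex. It had 94 cortex and 7 N2A peaks in a span of 113 kb on the minus strand of chromosome 17 (10206471 to 10319361). It was among 3 genes tied at rank 104 of all coding genes by cortex count. Of the 2103 coding genes with similar spans, 99.9% had fewer cortex peaks, and their median was 5. In the N2A list 98.3% of them had fewer. The ratio of 13.4 (exact interval 6.27 to 34.3) was close to that of the whole lists. Within 5 kb of the gene end the ratio of Qk was 1.0 (0.299 to 3.34), against 3.38 (3.28 to 3.48) in the other coding genes.

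Cortex peaks were spread along the whole Qk gene. Successive 25% segments of the span, from the 5′ end, held 23, 27, 18 and 26 of them, and the median distance between neighbours was 0.784 kb. Only 7 of the 94 lay within 5 kb of the gene end, a share of 7.45% (Wilson interval 3.65 to 14.6). Among the 3915 coding genes with at least 5 cortex peaks the median share was 21.4%, and 23.7% of them had a lower share than Qk.

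The strongest cortex peaks of Qk were at the end of the gene nonetheless. The peak at 10210627 to 10210677, 4.18 kb from the end, was among 65 in the cortex list with a p listed as 0, and the peak at 10209632 to 10209683, 3.19 kb from the end, had an authors' p of 2.27e-87. Far from the end, strong peaks lay at 10308809 to 10308860 (1.6e-33), 102 kb from it, and at 10253112 to 10253163 (2.83e-27), 46.7 kb from it. In all, 29 of the 94 had a p under 0.001.

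All 7 N2A peaks of Qk lay between 0.544 and 2.94 kb from the gene end. Of coding genes with at least 2 N2A peaks, 66.2% had all of them within 5 kb, so this was the common arrangement. The strongest, at 10207396 to 10207446 (authors' p of 1.45e-22), shared 48 nt with a cortex peak at 10207398 to 10207448 (8.92e-28 in cortex). A second N2A peak at 10208531 to 10208581 (3.5e-06) shared 45 nt with a cortex peak at 10208525 to 10208576 (1.17e-15 in cortex). The 2 strongest cortex sites had no N2A peak on them, and the nearest N2A peaks were 1191 and 196 nt away. Oligodendrocyte and astrocyte markers had peaks in 4 of 4 and 3 of 4 genes in cortex and in none of either list in N2A cells. Neuron markers had them in 5 of 5 genes in cortex and 3 of 5 in N2A cells. Which cells gave the Qk peaks was not tested.

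Srrm4, a neuron-restricted regulator of microexons, had 20 cortex and 3 N2A peaks in a span of 153 kb on the minus strand of chromosome 5 (116439268 to 116592562). The ratio of 6.67 (exact interval 1.98 to 35.0) held the ratio of the whole lists within its interval. In cortex 5 of the 20 lay within 5 kb of the gene end, as did 2 of the 3 in N2A cells. Every N2A peak of Srrm4 overlapped a cortex peak.

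The Srrm4 site with the lowest p was the same in both lists. The cortex peak at 116440120 to 116440171 (authors' p of 8.64e-37) and the N2A peak at 116440128 to 116440179 (5.02e-13) shared 43 nt, 0.877 and 0.885 kb from the end. The pair at 116439636 to 116439687 in cortex (1.35e-22) and 116439631 to 116439681 in N2A cells (0.00357) shared 45 nt. The pair at 116454454 to 116454504 in cortex (7.79e-06) and 116454445 to 116454495 in N2A cells (0.0733) shared 41 nt and lay 15.2 kb from the end, beyond the region where most N2A peaks were found.

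The noncoding gene Srrm4os overlaps the 3′ part of Srrm4, and its span held 9 of the cortex and all 3 of the N2A peaks. All of these lay on the minus strand, which the reference gives for Srrm4. Without the peaks that touch Srrm4os, 11 cortex peaks and no N2A peak of Srrm4 remained. The strand of Srrm4os is not in the reference used here, and its part in these peaks was not tested.

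Over the 8 genes, 8 of the 28 N2A peaks overlapped a cortex peak on the same strand by at least 1 nt, a share of 28.6% (Wilson interval 15.3 to 47.1). These were 3.36% of the 238 cortex peaks. In the other coding genes 42.7% (41.5 to 43.8) of N2A peaks overlapped a cortex peak, a value inside the interval of the 8 genes. The shared sites were 3 in Srrm4, 2 in each of Ptbp3 and Qk and 1 in Ptbp2. With an overlap of at least 25 nt required, 6 of the 28 remained, and with a distance of up to 100 nt allowed, 13 of the 28 had a cortex neighbour.

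In cortex, where peaks lay along the spans, genes were ordered by peaks per length. In that list Qk came first with 8.33 peaks per 10 kb (exact Poisson interval 6.73 to 10.2), followed by Ptbp2 with 5.46 (3.83 to 7.56). Khdrbs1 had 2.65 (1.32 to 4.74), Khdrbs3 2.19 (1.55 to 3.01), Srrm4 1.30 (0.797 to 2.01), Ptbp3 1.29 (0.619 to 2.37) and Khdrbs2 0.544 (0.365 to 0.782), while Ptbp1 had 0. The intervals of neighbours in this order overlapped at every step from Qk to Khdrbs2. Khdrbs2 was nevertheless below Khdrbs1, Khdrbs3 and Srrm4 with no overlap of intervals.

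Peaks per length mean less in the N2A list, because 25 of the 28 peaks lay within 5 kb of the gene end. By count, Ptbp3 came first with 10 N2A peaks, followed by Qk with 7, Ptbp2 with 5, Srrm4 with 3, Ptbp1 with 2 and Khdrbs1 with 1. Divided by length the order depends on the span, and Ptbp1, the shortest of the 8 genes, came first. Ptbp1 had 2.00 peaks per 10 kb (0.242 to 7.22), Ptbp3 1.29 (0.619 to 2.37), Ptbp2 0.759 (0.246 to 1.77) and Qk 0.620 (0.249 to 1.28). Khdrbs1 had 0.241 (0.0061 to 1.34) and Srrm4 0.196 (0.0404 to 0.572), while Khdrbs2 and Khdrbs3 had 0. The intervals of the 6 genes with peaks overlapped for every pair except Ptbp3 and Srrm4.

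**Figure D4:**
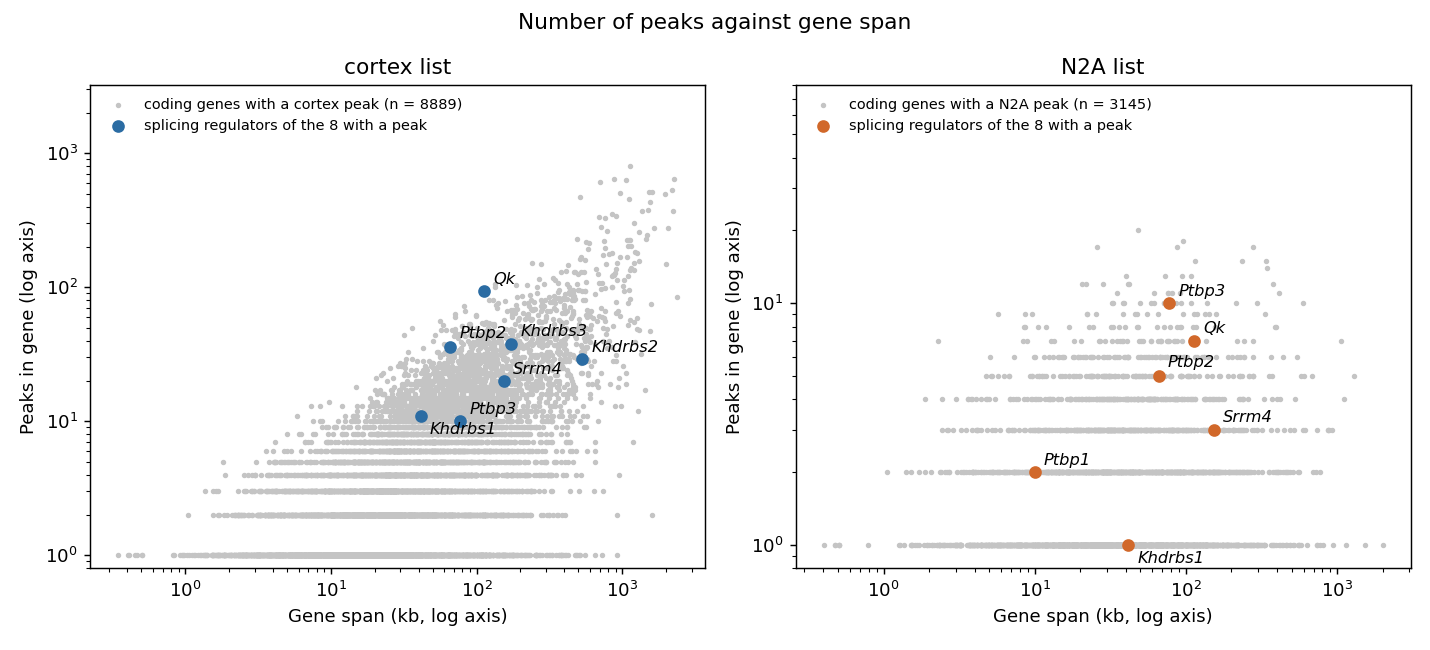
Number of peaks per gene (vertical log axis) against gene span in kb (horizontal log axis) for all coding genes with a peak (grey), in the cortex list (left, 8889 genes) and the N2A list (right, 3145 genes), with those of the 8 splicing regulators that have a peak in colour. Qk and Ptbp2 lie near the upper edge of the cortex cloud for their length, Khdrbs2 in its middle, and Ptbp3 is the highest of the 8 in the N2A list.

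Peak strength was compared within lists. The median of the authors' p in the 8 genes was 0.0144 in cortex and 0.00802 in N2A cells, against 0.00932 in cortex and 0.00546 in N2A cells in the other coding genes. A p under 0.001 was listed for 9 of the 22 cortex peaks near the gene end and 59 of the 216 farther away, 40.9% near the end and 27.3% beyond. The corresponding shares of cortex peaks in the other coding genes were 53.7% near the end and 29.0% beyond. Among the 7335 strongest cortex peaks, a set as large as the N2A list, were 9 of Qk, 4 of Srrm4, 3 of Ptbp2, 2 of Khdrbs3 and none of the other genes, 18 in all against 28 N2A peaks. None of the 10 cortex peaks of Ptbp3 was in that set.

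Known targets and partners of these regulators were also looked up. Of transcripts with exons under Ptbp control, 8 of 9 had cortex peaks and 6 of 9 N2A peaks, with medians per gene of 5 peaks in cortex and 1 in N2A cells. Of all coding genes 40.6% had a cortex peak and 14.4% an N2A peak, and the median was 0 in both lists. These shares are the background for the counts of every list of targets and partners given here, and the lists were chosen with earlier results known. Actn1, an actin crosslinker, had 2 in cortex and 5 in N2A cells, and Flna, an actin-binding filamin, had none. Transcripts under Khdrbs control had cortex peaks in 7 of 7 and N2A peaks in 0 of 7, with medians of 15 in cortex and 0 in N2A cells. Having a cortex peak and no N2A peak was the usual state, found in 67.7% of all coding genes with a cortex peak, so the 0 of 7 is no result about this list.

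Transcripts bound by quaking had cortex peaks in 7 of 9 and N2A peaks in 3 of 9, with medians of 5 in cortex and 0 in N2A cells. Map1b, a microtubule-associated protein, had 24 cortex and 18 N2A peaks, while the myelin protein gene Mag and the transcription factor gene Egr2 had none in either list. The myelin genes Mbp and Mobp of this list are oligodendrocyte markers too. Transcripts under Srrm4 control had cortex peaks in 5 of 6 and N2A peaks in 4 of 6, with medians of 3 in cortex and 1 in N2A cells. Cpeb4, a regulator of translation that contains a microexon, had 25 cortex and 7 N2A peaks. Rest, the repressor of neuronal genes (named after its values were seen), had 0 cortex peaks and 1 N2A peak with an authors' p of 1.82e-06. Partners and kin had peaks in 7 of 7 genes in cortex and 5 of 7 in N2A cells, with medians of 6 in cortex and 2 in N2A cells. Matr3, a nuclear matrix protein that binds Ptbp1, had 27 cortex and 6 N2A peaks.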

How the data were processed

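Elavl HITS-CLIP was measured in 3 cortex samples and 1 N2A sample. Per the submitters' processing notes reads were aligned with Novoalign, and the notes name the human build hg19. The labels and files do not state the peak caller, its filters or how samples were merged. In the deposited lists each row holds position, strand and a p-value per peak, made by the authors, with no statement on adjustment. The p-values ran from 0 to 0.0999 in cortex and 0.0997 in N2A cells and were used to rank or filter peaks within a list.

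Coordinates, printed as deposited, were read as GRCm38: in 4570 of 4673 coding genes with at least 3 peaks (97.8%) the strand of most peaks was that of the RefSeq GRCm38.p6 promoter table, as in 5 of 5 of the 8 genes listed there. A peak that touched several coding genes counted for each. Distances within a gene run from the peak's midpoint to the end of the span, and distances past the end from that end to the peak's nearer edge. The computation used Python 3.11.15, pandas 2.3.3 and scipy 1.17.1, and recovered counts and strands of 200 of 200 genes with simulated peaks. Shares have Wilson intervals, and ratios and shares of a list have exact Clopper-Pearson intervals. Exact Poisson intervals belong to peaks per 10 kb.

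The 8 genes and the lists of related genes and markers were chosen with earlier results of these data known. All 8 genes are described. From each related list the genes with the most cortex and the most N2A peaks and those with none were named, except some that are not reported here, and for each of the 8 genes the 3 coding genes of similar span with the most similar counts. Alternatives covered the p threshold, strand, span, overlap, windows, cluster gap and list size.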

Additional observations from a re-analysis of the deposited data

How the results depend on the processing

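Of 116 values recomputed under the alternatives, 87 moved by no more than 1.5 times (counts) or stayed within their counting interval. Of the 25 over all 8 genes 6 moved farther, and of the 91 on single genes 23 did, most of them with p under 0.001, which keeps fewer peaks by construction. With p under 0.001 the peak counts were 68 in cortex and 12 in N2A cells. With as many of the strongest cortex peaks as the N2A list holds, the cortex to N2A ratio was 0.643 over the 8 genes, 0.6 for Ptbp2 and 0 for Ptbp3, 1.29 for Qk and 1.33 for Srrm4, in a setting where the ratio of whole lists is 1 by construction. The share near the gene end was 3.78% in cortex and 57.1% in N2A cells within 2 kb, and 13.9% in cortex within 10 kb. Without peaks that touch another gene, Ptbp1 kept 0 of 2 N2A peaks, and Srrm4 kept 11 of 20 cortex peaks and 0 of 3 N2A peaks. No paired analysis was possible because no value belongs to a single sample, and for the same reason no sample could be left out. Depth is unknown, and a list as small as that of N2A cells limits each count of 0.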

Other observations

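Past the annotated end of Qk, on the same strand and within 5 kb, the cortex list held 3 more peaks and the N2A list none. They lay at 10206221 to 10206271 (authors' p of 0.0207), at 10204973 to 10205023 (0.0383) and at 10202628 to 10202678 (0.000512) on chromosome 17, with their nearer edges 0.2, 1.45 and 3.79 kb past the end. Ptbp2 had 1 such cortex peak, at 119718561 to 119718612 on chromosome 3 (authors' p of 0.0695), 0.129 kb past its end. The other 6 genes had none in either list.

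Some coding genes of similar span had nearly the same counts as the splicing regulators. Likeness was the distance over log2(peaks + 1) of cortex, of N2A cells and of cortex peaks within 5 kb of the gene end, over the 2 lists, so it is a coarse measure. Ptbp2 was nearest to Pafah1b1, the gene of the lissencephaly protein Lis1, with 40 cortex and 6 N2A peaks (distance 0.267), then to Pspc1 and Rtn3. Srrm4 was nearest to Xrn1, an exonuclease gene, with 20 cortex and 3 N2A peaks (distance 0.222), then to Tle4 and Slc39a10. Ptbp3 was nearest to Reep3 with 9 cortex and 8 N2A peaks (distance 0.374), then to Slc7a14 with 10 cortex and 13 N2A peaks and Slc6a6 with 11 cortex and 7 N2A peaks.

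Qk had no close match. Its nearest gene was R3hdm1, with 100 cortex and 4 N2A peaks (distance 0.8), followed by Picalm with 51 cortex and 5 N2A peaks and by the splicing regulator Celf1 with 51 cortex and 10 N2A peaks (distance 1.07). Khdrbs3 was nearest to Ehmt1, a histone methyltransferase gene, with 39 cortex and 0 N2A peaks, then to Vps13a and Brinp1. Khdrbs2 matched Zfp804b exactly, with 29 cortex and 0 N2A peaks, ahead of Pcca and Rgs6, and Khdrbs1 matched Prepl exactly, with 11 cortex peaks and 1 N2A peak, ahead of Hnrnpm and Pbdc1. The counts of Ptbp1 were those of 16 other genes of similar span, Mmp19, Bcl10 and Slc35g1 being nearest in length.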
